A study of Mus musculus with 14 samples.

Results

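Loss of Clpx was examined in ovulated oocytes, the eggs that are released from the follicle after meiosis has restarted. The libraries were chosen by their labelled stage and genotype, which took in 6 of the 14 libraries of the series and all 16903 genes of their count table. In the 3 control libraries, labelled WT, the genotype field gives Clpxfl/fl with no Cre named, while the titles of these libraries read Clpxfl/f. In the 3 libraries labelled CKO they were Clpxfl/fl; Zp3-Cre, in which the promoter of a zona pellucida gene drives Cre recombinase in growing oocytes. Both groups carried the floxed allele, so they differed in the Cre transgene as well as in Clpx. RNA of lysed cells was copied and amplified with SMART-Seq2, a full-length method for minute amounts of RNA. The number of oocytes and animals behind a library, the age of the mice and the batches are not given in the sources used here. The p-values therefore measure only the spread between these samples, which may be technical.

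CLPX is an ATP-driven unfoldase of the mitochondrial matrix. It docks on the barrel-shaped peptidase CLPP and feeds it proteins to be degraded, and on its own it also activates ALAS, the first enzyme of heme synthesis. Oocytes hold very large numbers of mitochondria, which the embryo inherits from them. In the ovulated oocyte transcription is silent and many stored maternal mRNAs are being removed, so an mRNA level at this stage reflects both what was stored and what has been kept.

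The 6 libraries held between 25086506 and 27337037 estimated reads in genes and between 13700 and 14973 genes with a count. Levels are given as CPM, counts per 1e+06 scaled by edgeR's TMM method, which are shares of a library and not amounts per oocyte. All 12 oocyte markers examined, among them Zp3, had a mean of at least 10 CPM. Of 30 markers of granulosa and cumulus cells, 24 were in the table and only Cyp19a1 and Nr5a2 had a mean above 10 CPM. The summed level of these markers was 83.5 to 181 CPM in WT and 79.2 to 139 CPM in CKO libraries. Most of the 24 markers in the table were highest in WT replicate 3, many of them at low levels. Tnfaip6, a protein of the expanded cumulus matrix, was at 14.7 CPM in it and at 0 to 1.47 CPM in the other libraries. Hsd3b1, an enzyme of steroid synthesis, was at 14.6 CPM in it and at 0 to 0.754 CPM in the others. Gja1 was at 7.63 CPM in it and at 0 to 2.06 CPM in the others. Fst was at 6.52 CPM in it and at 0 to 1.18 CPM in the others. The markers not highest in it were Cyp19a1, Nr5a2, Kitl, Has2, Ereg, Lhcgr and Pgr. Cyp19a1 was at 127, 52.8 and 96.6 CPM in the WT libraries, Nr5a2 at 14.5, 18.3 and 12.3 CPM and Kitl at 12.5, 6.9 and 5.74 CPM. Of 27 markers of theca, stroma, vessels and blood, 20 were in the table and only Pecam1 passed 10 CPM, with sums of 70 to 154 CPM in WT and 76.4 to 114 CPM in CKO.

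The CKO libraries were not alike. Across 12044 tested genes, CKO replicates 1 and 2 had a Pearson correlation of 0.979 with each other on log2 CPM, but CKO replicate 3 had 0.954 and 0.959 with them. Its correlation with WT replicate 1 was 0.983, the highest of the 15 pairs. On the first principal component, which held 49.7% of the variance, CKO replicates 1 and 2 stood at 48 and 44.9, WT replicate 2 at 9.96, CKO replicate 3 at −25.3, WT replicate 3 at −30.1 and WT replicate 1 at −47.5. CKO replicate 3 thus lay among the WT libraries over the transcriptome as a whole, while its Clpx level was the lowest of all. Counts of calls and the medians of the main gene lists are given below with and without it.

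**Figure D1:**
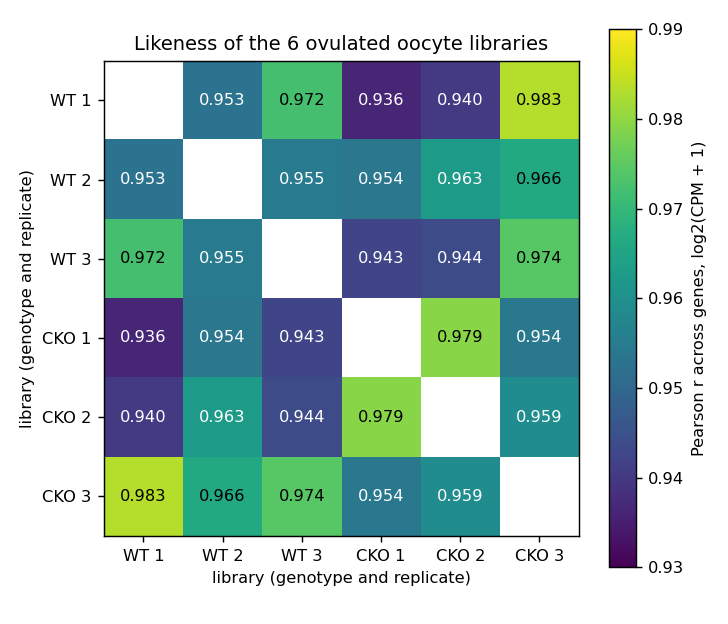
Pearson correlation of log2(CPM + 1) across the 12044 tested genes for each pair of the 6 ovulated libraries, as a colour and a number in each cell. CKO 1 and CKO 2 are close to each other (0.979), and CKO 3 is closest to WT 1 (0.983).

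The first question was whether the targeted transcript was lost. Clpx (gene ID 270166, mm10 chromosome 9, 65294251 to 65330658) had 540, 633 and 504 reads in the WT libraries. The CKO libraries had 15, 21 and 8 reads. Every CKO library thus lay below every WT library, and CKO replicate 3 had the fewest reads. In CPM the mean fell 42.5-fold, from 22.2 ± 1.32 (SD, n = 3) to 0.522 ± 0.174 (SD, n = 3). The log2 fold change was −5.39 (SE 0.441, edgeR adjusted p = 0.00123). Clpx was the 1 gene of 12044 tested that passed, or 0.0083%. Under 16 other settings its log2 fold change ran from −5.63 to −4.74, with adjusted p from 7.54e-32 to 0.0347 by edgeR, limma or DESeq2. In a pool of oocytes, fewer cells with an intact gene and less RNA per cell cannot be told apart, so the remaining reads give no share of oocytes that escaped deletion.

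Clpp, the peptidase partner, was barely detected. It stood at 0.128, 0.359 and 0.41 CPM in WT and at 1.64, 0.95 and 0.128 CPM in CKO libraries, so the groups overlapped. The log2 fold change was 1.58 (SE 0.997, edgeR adjusted p = 0.737). At the earlier germinal vesicle (GV) stage, when the nucleus is still intact, the same gene was at 7.37 to 12.8 CPM in WT.

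No gene that lies near Clpx passed. Of 30 genes in the table that start within 1 Mb of it, 26 were tested. Apart from Clpx itself, 11 had a higher and 14 a lower mean in CKO, with a median log2 fold change of −0.02, a range from −1.0 to 1.17 and a smallest edgeR adjusted p of 0.615. For 2 of these 25 genes all CKO libraries lay below all WT libraries, and for none did they lie above, against 4.91% and 5.47% of all tested genes. These were Dpp8 and Megf11, named after their values were seen, and Megf11 had fractional counts in all 6 libraries, so that reads may be shared with other genes.

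The gene with the next smallest p-value was Mt1 (gene ID 17748, chromosome 8). Metallothioneins are small cysteine-rich proteins that bind zinc and copper and buffer metals and oxidants. Mt1 and its neighbour Mt2 are the forms made in most tissues. Their coding sequences are shown because the 2 genes behaved differently although they encode proteins of the same length with cysteines at the same places. They are from GENCODE M21 on GRCm38, plus strand, introns removed, with cysteine codons in capitals. Mt1 spans chr8:94179311-94180193 and Mt2 spans chr8:94172848-94173427, each in 3 exons.
Mt1: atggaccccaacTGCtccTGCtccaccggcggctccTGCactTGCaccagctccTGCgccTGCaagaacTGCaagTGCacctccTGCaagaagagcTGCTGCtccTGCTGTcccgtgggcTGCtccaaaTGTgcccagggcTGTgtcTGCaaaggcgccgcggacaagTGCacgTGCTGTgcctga
Mt2: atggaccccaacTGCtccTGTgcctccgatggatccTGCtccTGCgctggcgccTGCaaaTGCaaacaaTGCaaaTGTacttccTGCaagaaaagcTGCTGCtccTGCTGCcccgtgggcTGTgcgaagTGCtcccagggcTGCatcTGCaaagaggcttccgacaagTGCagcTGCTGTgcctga
Both hold 61 codons before the stop, of which 20 are cysteine codons, and all 20 are at shared positions. The sequences are identical at 148 of 186 bases (79.6%). None of the 6 libraries had a fractional count for either gene.

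Mt1 was at 0.428, 0.324 and 2.83 CPM in WT libraries, that is at 10, 9 and 69 reads. In CKO libraries it was at 98.3, 61.1 and 29.6 CPM, that is at 2756, 1864 and 692 reads. The groups were far apart, and CKO replicate 3, the lowest of the CKO libraries, still stood over 10 CPM above the highest WT library. The log2 fold change was 5.72 (SE 0.825), which did not pass over all genes with the 6 libraries (edgeR adjusted p = 0.153). It passed without CKO replicate 3 (6.02, edgeR adjusted p = 0.00831), without WT replicate 3 (7.33, edgeR adjusted p = 0.0186), in the edgeR fit of all 14 libraries (5.76, adjusted p = 0.0028) and in DESeq2 (5.74, adjusted p = 0.000108). The WT library with the most Mt1 reads, replicate 3, was also highest in most granulosa and cumulus markers of the table, Tnfaip6 and Hsd3b1 among them. Cyp19a1, Nr5a2, Kitl, Has2, Ereg, Lhcgr and Pgr were not highest in it. The part of cumulus cells in the Mt1 level was not tested. Over the 16 alternatives the value ran from 5.26 to 7.33, and the adjusted p from 0.000108 to 0.946. Mt2 stayed at trace levels, with 4, 4 and 7 reads in WT and 13, 17 and 1 in CKO libraries, and was too low to be tested with the 6 libraries. It was tested in other fits and did not pass. Its log2 fold change was 1.28 without CKO replicate 3 (edgeR adjusted p = 0.67) and 0.87 in the fit of 14 libraries (edgeR adjusted p = 0.721). Set beside these values, Mt1 at the GV stage was at 0.641 to 2.34 CPM in 4 WT and at 78.4 to 108 CPM in 4 CKO libraries. The CKO effect on Mt1 differed between the stages by −0.16 on the log2 scale (SE 0.838, edgeR adjusted p = 0.98), a standard error that leaves room for differences of more than 2-fold.

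No gene of zinc handling passed with the 6 libraries. Of 19 tested genes of this list, 15 had a higher mean in CKO (50% of all tested genes did), with a median log2 fold change of 0.15 beside −0.000484 over all genes. All 3 CKO libraries lay above all WT libraries for 4 of the 19, against 5.47% of all tested genes. These were Mt1 and the zinc exporters Slc30a1, Slc30a4 and Slc30a5, the first and last of these exporters being named after their values were seen. Slc30a4, which loads zinc into vesicles, was at 86.7, 73.3 and 46.1 CPM in WT and at 109, 95.4 and 118 CPM in CKO (log2 fold change 0.65, edgeR adjusted p = 0.642). Slc30a1, the exporter of the cell surface, was at 14.5, 23.2 and 12.1 CPM in WT and at 23.5, 27.4 and 28.4 CPM in CKO (0.67, edgeR adjusted p = 0.687).

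**Figure D2:**
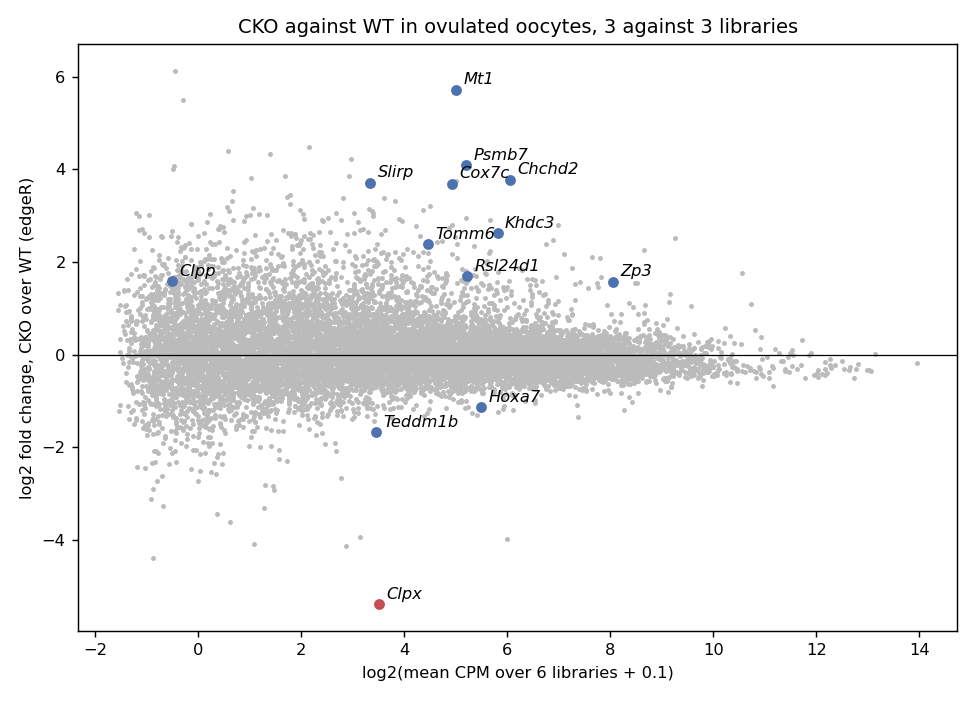
Each point is 1 of the 12044 tested genes, with log2(mean CPM + 0.1) over the 6 libraries across and the edgeR log2 fold change of CKO over WT up. Clpx, in red, lies at −5.39 and passed the threshold. Mt1 lies at 5.72 and, like the other labelled genes in blue, did not pass.

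Beyond Clpx no gene passed, and 935 genes (7.76% of those tested) had an edgeR p below 0.05 before adjustment, of which 704 (5.85%) had a higher and 231 (1.92%) a lower CKO mean. The 12 genes of each direction with the smallest p-values among genes averaging 10 CPM or more are described next. Apart from Clpx and Mt1 each had an edgeR adjusted p of 0.524. Among the 12 higher genes, CKO replicate 3 lay inside the WT range for 3 and above it for 9. All 12 passed in the fit without that library, with edgeR adjusted p from 0.00223 to 0.0424.

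Several of the higher genes encode parts of mitochondria. Slirp, which encodes an RNA-binding protein that stabilises mitochondrial mRNAs, was at 0.985, 1.76 and 1.52 CPM in WT and at 39.4, 13.8 and 2.86 CPM in CKO (log2 fold change 3.71, SE 0.79). Tomm6, a small subunit of the outer membrane import channel, was at 5.14, 9.31 and 6.65 CPM in WT and at 65, 35.8 and 9.61 CPM in CKO (2.39, SE 0.583). In both the CKO libraries lay above WT, but replicate 3 only just. Cox7c, a subunit of cytochrome c oxidase, was at 1.97, 3.63 and 7.47 CPM in WT and at 96, 68.7 and 4.36 CPM in CKO (3.69, SE 0.892). Chchd2, which encodes a protein of the intermembrane space, was at 4.07, 12.8 and 10.3 CPM in WT and at 197, 168 and 7.52 CPM in CKO (3.77, SE 0.905). For these last genes CKO replicate 3 was inside the WT range, and Chchd2 had fractional counts in all 6 libraries, so reads may be shared with its processed copies. At the GV stage, WT libraries held Slirp at 19.7 to 27.1 CPM and Tomm6 at 17.2 to 26.7 CPM. Cox7c was there at 57.4 to 104 CPM and Chchd2 at 364 to 634 CPM, so all of these genes were above their ovulated WT levels. Whether the ovulated CKO levels reflect stored mRNA that was kept was not tested.

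Others belong to protein turnover and ribosome assembly. Rsl24d1, a factor of large ribosomal subunit assembly, was at 16.9, 20.6 and 15.4 CPM in WT and at 79.6, 54.1 and 36.8 CPM in CKO (log2 fold change 1.69, SE 0.342), with all CKO libraries above all WT libraries. Psmb7, a catalytic subunit of the proteasome, was at 2.31, 4.42 and 5.54 CPM in WT and at 118, 87.1 and 3.5 CPM in CKO (4.08, SE 0.934), with replicate 3 inside the WT range. Yipf1, a Golgi membrane protein, Cyb5a, which encodes the electron carrier cytochrome b5, Tmem29 and Lamtor1, an anchor of the Ragulator complex on lysosomes, had log2 fold changes of 3.32, 2.91, 3.21 and 1.73. These genes too were higher in GV WT libraries than in ovulated WT libraries. At the GV stage Rsl24d1 was at 130 to 177 CPM, Psmb7 at 251 to 336 CPM and Yipf1 at 144 to 161 CPM. Cyb5a was at 235 to 404 CPM, Tmem29 at 54.6 to 69 CPM and Lamtor1 at 65 to 97.1 CPM.

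Apart from Clpx, the lower genes showed smaller differences. Teddm1b was at 20.1, 17 and 12.6 CPM in WT and at 4.51, 6.13 and 4.87 CPM in CKO (log2 fold change −1.68, SE 0.367). Its counts were fractional in all 6 libraries, so it may share reads with a related gene. Hoxa7, a homeobox gene, was at 56.8, 59.2 and 68.8 CPM in WT and at 15.8, 29.4 and 39.2 CPM in CKO (−1.13, SE 0.348). In these genes the groups did not overlap, with CKO replicate 3 the nearest to WT for Hoxa7. Lcmt2, a tRNA-modifying enzyme, Sap30, a subunit of the SIN3 histone deacetylase complex, and Rtf1, a transcription elongation factor, had log2 fold changes of −1.15, −0.91 and −0.88. Of the 12 lower genes, 10 had groups that did not overlap, against 4.91% of all tested genes, but these genes were picked for their small p-values. In the fit without CKO replicate 3, 2 of the 12 lower genes passed.

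**Figure D3:**
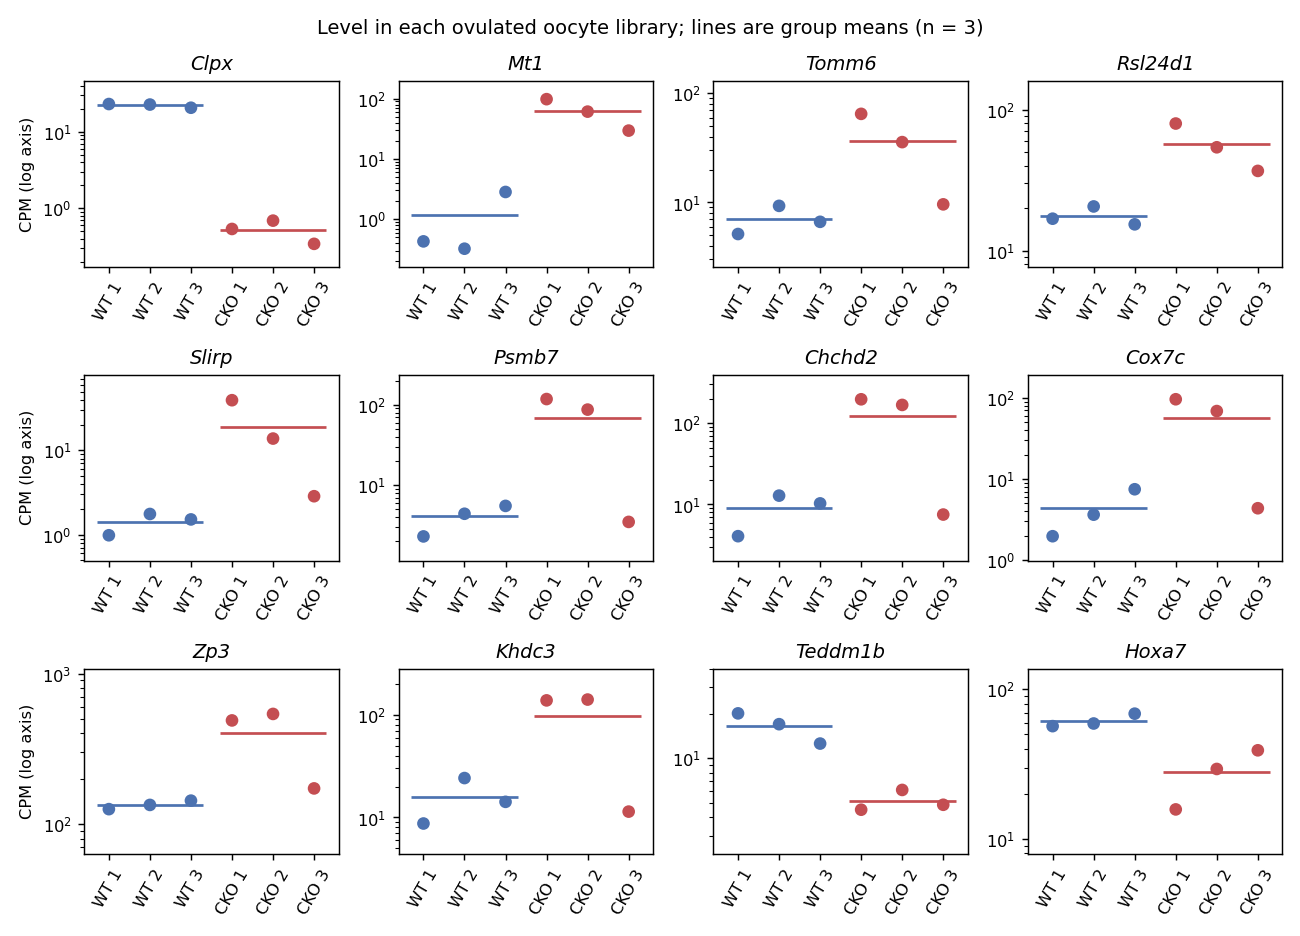
CPM of 12 genes in each ovulated library on log axes that differ between panels, WT in blue and CKO in red, with lines at the group means (n = 3). In Clpx and Mt1 all CKO libraries stand apart from WT, whereas for Psmb7, Chchd2, Cox7c and Khdc3 the library CKO 3 lies within the WT range.

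Without CKO replicate 3, edgeR called 201 of 12576 genes (1.6%), 196 of them higher (1.56%) and 5 lower (0.0398%). In the 196 genes the level of CKO replicate 3, which that fit did not use, was above all WT libraries for 46 (23.5%), inside the WT range for 129 (65.8%) and below it for 21 (10.7%). Over all 12576 genes the shares were 19.5%, 64.2% and 16.2%. The median log2 ratio to the WT mean was 2.47 in CKO replicates 1 and 2, which chose the genes, and 0.03 in CKO replicate 3. The share of the 196 genes inside the WT range in CKO replicate 3 was thus close to that of all genes. When all 6 were kept, DESeq2 called 107 genes higher (0.888%) and 7 lower (0.0581%), and the edgeR fit of 14 libraries 61 higher (0.464%) and 3 lower (0.0228%). Of DESeq2's higher genes 101 were among the 196 (94.4% of its list and 51.5% of the other). The calls are not independent, since both fits use CKO replicates 1 and 2 and the WT libraries.

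The 10 genes called higher in that fit with the largest changes at a mean of at least 10 CPM included Mt1, Psmb7, Chchd2, Cox7c, Slirp, Yipf1 and Tmem29, already described. The others were Fcf1, an rRNA processing factor (log2 fold change 4.26, edgeR adjusted p = 0.0114), Trappc2l, a vesicle tethering factor (3.89, edgeR adjusted p = 0.00831), and Cox7b, a subunit of cytochrome c oxidase (3.62, edgeR adjusted p = 0.00831). Fcf1 was at 4.2, 4.1 and 5.01 CPM in WT, at 149 and 25.9 CPM in CKO replicates 1 and 2, and at 4.44 CPM in CKO replicate 3, inside the WT range. The 5 lower genes were Clpx, Cphx2, a homeobox gene of the oocyte and early embryo, Crabp2, a retinoic acid binding protein, and, at low levels, Tmem51 and Asdurf, named after their values were seen. Crabp2 was at 135, 297 and 279 CPM in WT and at 56.9, 67.3 and 156 CPM in CKO, where replicate 3 lay within WT. Cphx2 was at 34, 34.5 and 114 CPM in WT and at 3.11, 9.39 and 61.5 CPM in CKO. Its counts were fractional in all libraries, so its level is uncertain.

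Gene lists were then compared by their members' counts and medians, with no test of the list. Complex I had the highest median of the lists. This complex, the NADH dehydrogenase that passes electrons to ubiquinone, had 35 of 36 tested subunits with a higher CKO mean and a median log2 fold change of 1.24. CKO replicates 1 and 2 were both above every WT library for 27 of the 36 (75%), against 18.2% of all tested genes. Relative to the WT mean of each gene, the median subunit stood at −0.63, 0.62 and 0.12 log2 units in the WT libraries and at 2.12, 1.32 and −0.07 in the CKO libraries. The list was thus high in 2 CKO libraries and within the WT range in the third, and for none of the 36 did all 3 CKO libraries lie above WT. No subunit passed with the 6 libraries, and 8 of 36 were called higher without CKO replicate 3, against 1.56% of all genes tested. The median was 1.58 without CKO replicate 3 and 0.67 without CKO replicate 1.

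Ndufa5, an accessory subunit, was at 2.27, 7.08 and 4.92 CPM in WT and at 53.4, 39.2 and 5.38 CPM in CKO (log2 fold change 2.78, SE 0.715). Ndufa2, another accessory subunit, was at 9.03, 16.1 and 7.84 CPM in WT and at 103, 35.7 and 10.4 CPM in CKO (2.18, SE 0.667). In both CKO replicate 3 lay inside the WT range. The 1 subunit gene with a lower CKO mean was Ndufa10, at 281, 172 and 257 CPM in WT and at 126, 146 and 235 CPM in CKO (−0.49, edgeR adjusted p = 0.742).

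Complexes II to V together pass electrons to ubiquinone and on to oxygen, and make ATP. They had 35 of 44 genes with a higher CKO mean and a median of 0.79. CKO replicates 1 and 2 were above WT for 23 of 44, against 18.2% of all genes. None passed with the 6 libraries, and 8 of 44 were called higher without CKO replicate 3, against 1.56% of all genes. The median was 1.11 without CKO replicate 3 and 0.30 without CKO replicate 1. These 8 were the succinate dehydrogenase anchor Sdhd, the cytochrome bc1 subunits Uqcrb, Uqcrh, Uqcr10 and Uqcr11, the oxidase subunits Cox7b and Cox7c, and the ATP synthase subunit Atp5md. Sdha, the flavoprotein of succinate dehydrogenase, was at 321, 179 and 288 CPM in WT and at 149, 148 and 238 CPM in CKO (log2 fold change −0.56, edgeR adjusted p = 0.71).

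Ribosomal proteins and the import machinery also had their highest median in CKO replicate 1. Cytosolic ribosomal proteins had 64 of 84 genes with a higher CKO mean and a median of 0.84, with library medians of −0.97, 0.60 and 0.40 in WT and 1.73, 0.85 and −0.24 in CKO. The median over genes was 1.15 without CKO replicate 3 and 0.15 without CKO replicate 1. Genes of mitochondrial import and dynamics had 24 of 32 higher and a median of 0.70, which was 0.88 and 0.45 without those libraries. Mitochondrial ribosomal proteins, which translate the mitochondrial mRNAs, had 54 of 77 higher and a smaller median of 0.26, which was 0.46 without CKO replicate 3 and −0.04 without CKO replicate 1. In this list only CKO replicate 1 (0.85) had a library median above all WT libraries, and CKO replicate 2 (0.15) was below WT replicate 2 (0.44). For each of these lists CKO replicate 3 had a median inside the WT range, and without it 6 of 84, 3 of 32 and 5 of 77 members were called higher, against 1.56% of all genes. Rps13 of the small cytosolic subunit was at 3.04, 13.2 and 9.03 CPM in WT and at 113, 70.9 and 10.4 CPM in CKO (log2 fold change 2.94, SE 0.754). Mrpl28 of the large mitochondrial subunit was at 1.11, 2.01 and 3.04 CPM in WT and at 25.3, 16.6 and 2.69 CPM in CKO (2.85, SE 0.719).

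**Figure D4:**
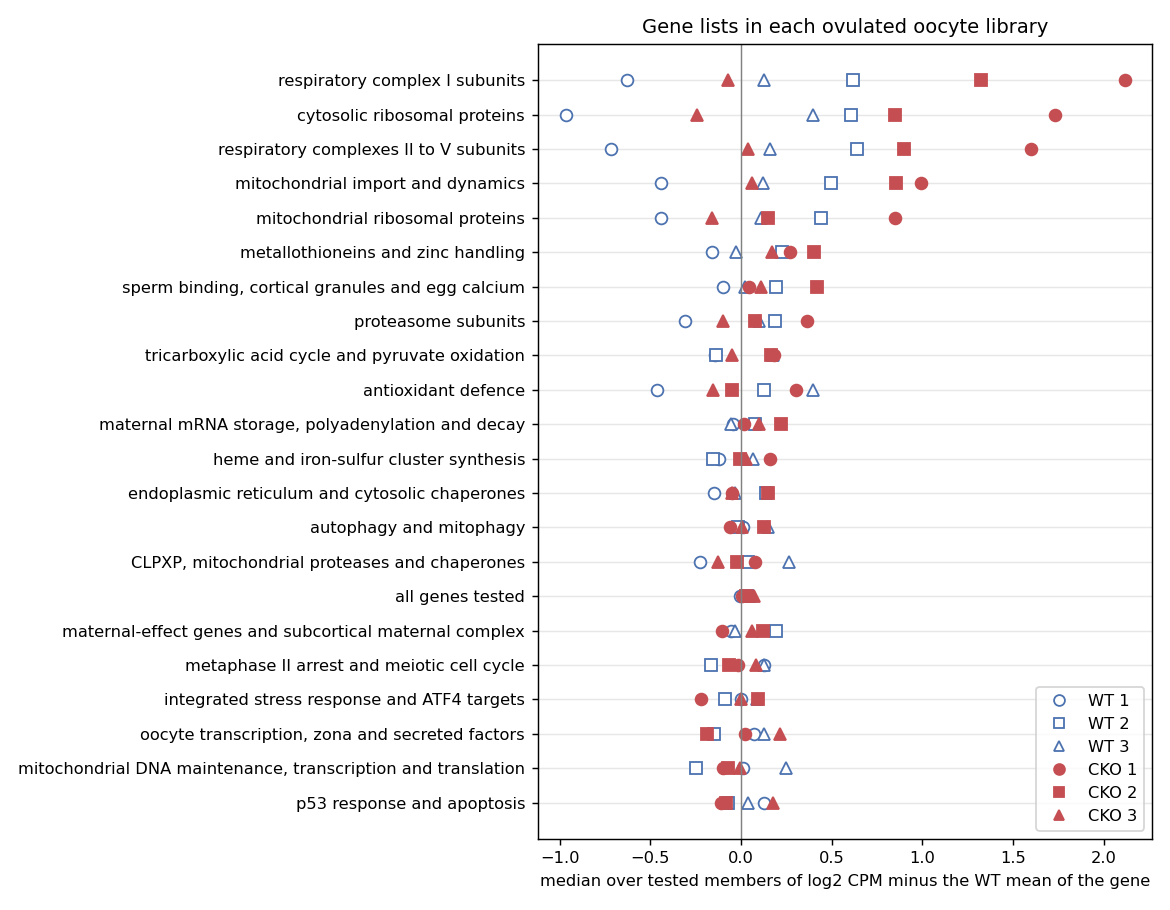
Median over the tested members of each gene list of the log2 CPM minus the WT mean of the same gene, 1 symbol per library, WT open in blue and CKO filled in red. In complex I the medians of CKO 1 and CKO 2 are 2.12 and 1.32, and that of CKO 3 is −0.07, between the WT libraries.

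Lists nearer to CLPX itself had medians close to that of all genes. Mitochondrial proteases and chaperones, the list that holds Clpx, had 13 higher and 12 lower CKO means among 25 genes, a median of 0.02, and no member but Clpx that passed. Hspa9, the main HSP70 chaperone of the matrix, was at 218, 246 and 249 CPM in WT and at 140, 163 and 242 CPM in CKO (log2 fold change −0.39, edgeR adjusted p = 0.765). All CKO libraries lay below WT for 3 of the 25, against 4.91% of all tested genes: Clpx, the inner membrane protease Yme1l1 and the prohibitin Phb, the last 2 named after their values were seen. Yme1l1 was at 12.6, 10.4 and 16.5 CPM in WT and at 8.56, 8.85 and 8.59 CPM in CKO (−0.60, edgeR adjusted p = 0.713).

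Heme and iron-sulfur cluster genes had 9 of 23 higher CKO means and a median of −0.04. Alas1, the ALAS form of most tissues and a known partner of CLPX, was at 71.6, 36.2 and 52.6 CPM in WT and at 52, 50.9 and 55 CPM in CKO, within the WT range in every CKO library. Its log2 fold change was −0.02 (SE 0.302, edgeR adjusted p = 0.987), whose sign changed under other settings, total count scaling included (0.11). The iron-sulfur genes Isca1 (1.5, edgeR adjusted p = 0.524) and Glrx5 (1.73, edgeR adjusted p = 0.575) were called higher in the fit without CKO replicate 3.

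The integrated stress response, which mitochondrial damage can trigger through the transcription factor ATF4, had 13 of 34 genes with a higher CKO mean, a median of −0.08 and no member that passed with or without CKO replicate 3. Atf4 itself was at 11.5, 41.7 and 46.2 CPM in WT and at 22.8, 48.7 and 27.9 CPM in CKO, with groups that overlapped. Its log2 fold change was −0.000577 (SE 0.486), with the sign turned under total count scaling (0.07). Mthfd2, the one-carbon enzyme of mitochondria and an ATF4 target, was at 368, 334 and 419 CPM in WT and at 258, 299 and 377 CPM in CKO (−0.26, edgeR adjusted p = 0.825). Chac1, a glutathione-degrading target, was higher in all CKO libraries but at no more than 1.41 CPM.

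Medians near that of all genes were also found for mitochondrial DNA maintenance, transcription and translation (−0.10 over 27 genes), the tricarboxylic acid cycle (0.13 over 25), antioxidant defence (−0.03 over 25), autophagy and mitophagy (−0.03 over 33) and the p53 response and apoptosis (−0.10 over 28). Without CKO replicate 3 the median for mitochondrial DNA maintenance, transcription and translation was −0.29, beside −0.088 over all genes. Endoplasmic reticulum and cytosolic chaperones had 0.03 over 31 genes and proteasome subunits 0.12 over 38. Without CKO replicate 3, 4 proteasome genes were called higher, against 1.56% of all genes, namely Psmb7, Psmb1, Psmb4 and the inhibitor Psmf1. In Psma7, a subunit of the outer ring, the CKO libraries were all below WT, at 677, 603 and 740 CPM against 855, 1470.3 and 923 CPM (log2 fold change −0.69, edgeR adjusted p = 0.639). No proteasome gene passed with the 6 libraries.

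Among oocyte genes, the list of transcription, zona and secreted factors had 19 of 34 higher CKO means and a median of 0.06. The sign of this median rested on single libraries, as it was −0.23 without CKO replicate 3 and 0.23 without CKO replicate 2. The zona pellucida genes Zp2 and Zp3, which encode the egg coat and whose mRNA falls steeply once growth ends, stood out in this list. Zp3, whose promoter drives the Cre, was at 126, 134 and 143 CPM in WT and at 488, 539 and 172 CPM in CKO (log2 fold change 1.58, SE 0.389, edgeR adjusted p = 0.524). Zp2 was at 115, 111 and 95.6 CPM in WT and at 382, 529 and 116 CPM in CKO (1.68, SE 0.452, edgeR adjusted p = 0.524). In both genes every CKO library lay above every WT library, and replicate 3 did so by the least. At the GV stage the same genes were far higher, Zp3 at 3528 to 4795 CPM and Zp2 at 2937 to 5103 CPM in WT. Without CKO replicate 3 both were called higher (1.89 and 2.04, edgeR adjusted p = 0.0131 each), as was Figla, a transcription factor of the zona genes, at 0.641 CPM in CKO replicate 3 and 0.771 to 1.98 CPM in WT.

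Maternal-effect genes, which the embryo needs before its own genome is active, had 21 of 38 higher CKO means and a median of 0.03. Khdc3, a member of the subcortical maternal complex, was at 8.73, 24.2 and 14.2 CPM in WT and at 138, 141 and 11.4 CPM in CKO (log2 fold change 2.62, SE 0.737). Dnmt3l, the cofactor of maternal DNA methylation, was at 19.8, 16.4 and 16 CPM in WT and at 65.5, 68.5 and 23.8 CPM in CKO (1.59, SE 0.398). CKO replicate 3 was within WT for Khdc3 and just above it for Dnmt3l. These genes and Tle6, of the same complex as Khdc3, were called higher without that library. Genes of metaphase II arrest and meiosis had 25 of 52 higher CKO means and a median of −0.03, with 2 called higher without CKO replicate 3, the CDK1-activating phosphatase Cdc25b (2.08) and Fzr1 (2.29), an activator of the anaphase-promoting complex. Genes of maternal mRNA storage and decay had 26 of 46 higher and a median of 0.12, and those of sperm binding and egg calcium 16 of 28 and 0.16. None of the members of these last lists was called in either fit.

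None of the most abundant transcripts passed. The 10 genes with the highest mean FPKM in WT, a unit scaled to gene length and library size, lay between 6462 and 11079 FPKM. Their log2 fold changes ran from −0.47 to 0.01, with 9 of 10 below 0, a lowest edgeR adjusted p of 0.798 and overlapping groups in all 10. They included Pttg1, the securin that holds back the separation of sister chromatids (10431 FPKM in WT and 9013 FPKM in CKO), H1f8, the oocyte linker histone (9374 and 8051 FPKM), and Bcl2l10, an oocyte member of the BCL2 family (7211 and 6303 FPKM).

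The genes called higher without CKO replicate 3 were short. Gene length, taken as the length implied by the deposited counts and FPKM, had a median of 1061 bases over 193 of these genes and 2604 bases over the 11900 tested genes with a value. Of the 193, 124 (64.2%) were in the shortest of 5 equal groups of genes and 2 (1.04%) in the longest. Called genes made up 5.21% of the shortest group, then 1.55%, 0.84%, 0.42% and 0.084% of the longer ones. Levels in the shortest group also varied within a genotype, with medians of −0.33, 0.17 and 0.21 log2 units in the WT and 0.44, 0.14 and −0.04 in the CKO libraries. Length moved with the genes called, and its part in these results was not tested. Within the shortest group alone, 32 complex I genes had a median log2 fold change of 1.24 against 0.08 for the 2348 others, and 78.1% against 28.6% had CKO replicates 1 and 2 above WT. For 57 mitochondrial ribosomal protein genes the median was 0.45, and the share with CKO replicates 1 and 2 above WT was 31.6% against 29.2%. For complexes II to V it was 0.98 over 37 genes, with shares of 59.5% against 28.8%, and for cytosolic ribosomal proteins 0.84 over 76 genes, with 47.4% against 28.7%. For 17 genes of mitochondrial import and dynamics it was 0.95, with 76.5% against 28.9%. The shortest group ran from 36 to 1362 bases, and the median length of the 36 tested complex I genes was 494 bases. The other genes of the group were not matched to the lists in length, so these values do not test the part of length.

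**Figure D5:**
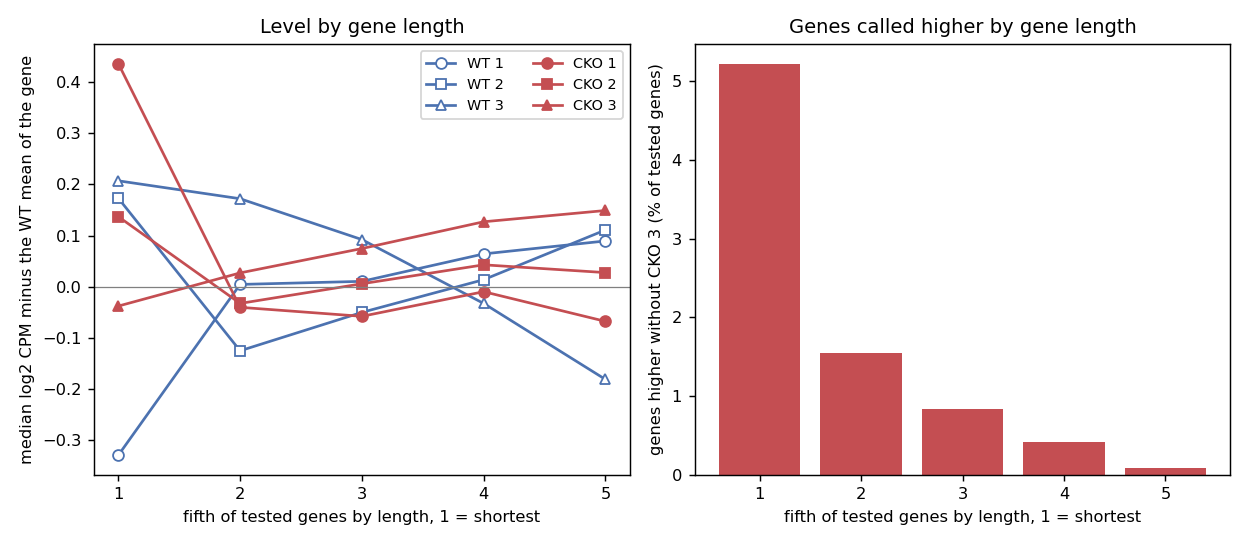
Left, the median log2 CPM minus the WT mean of the gene in each library for 5 equal groups of genes ordered by length; right, the percentage of each group called higher without CKO 3. The shortest group has the widest spread of libraries, from −0.33 in WT 1 to 0.44 in CKO 1, and the largest share of called genes, 5.21%.

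The last question was whether the effect of losing Clpx at this stage differed from that in GV oocytes, in 1 fit of the 14 libraries. Of 13158 genes, 1 passed (0.0076%). This was Tti2, which encodes a cochaperone of the kinases related to PI3K. Tti2 was at 0, 0 and 0.041 CPM in ovulated WT and at 1.53, 1.31 and 0.919 CPM in ovulated CKO libraries, so that all CKO libraries were above WT at very low levels. At the GV stage it was at 2.89 to 4.67 CPM in WT and 1.47 to 5.22 CPM in CKO. The stage difference was 6.41 on the log2 scale (SE 0.904, edgeR adjusted p = 0.0254), a fitted value that depends on the prior count because WT was at or near 0. This call was lost with the replicate block, which gave 0 calls, and in 10 of the 14 fits that left out 1 library. Before adjustment, 1205 genes (9.16%) had an edgeR p below 0.05. For Clpx the stage difference was −0.03 (SE 0.342, edgeR adjusted p = 0.991). Without ovulated CKO replicate 3 there were 498 calls. For 489 of them the log2 fold change of CKO over WT was higher in ovulated than in GV oocytes. This count of calls thus rests on that library as well.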

How the data were processed

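RNA of 6 ovulated mouse oocyte libraries was analysed (3 WT, 3 CKO), with 8 GV libraries for the stage difference. The authors deposited estimated counts per gene (expected counts, 14.45% to 16.32% of values per library fractional) and FPKM values. Build mm10 is from the submitters' processing notes. Aligner, counter and annotation are not given in the sources used here. Counts were rounded and tested with edgeR 4.0.16 in R 4.3.3 (TMM scaling, a filterByExpr filter at 10 counts, and the quasi-likelihood test with robust estimation), with Benjamini-Hochberg adjustment over all genes tested and a threshold of 0.05. DESeq2 1.42.0, limma 3.58.1 on counts and on log2(FPKM + 0.1), other scalings, filters, a replicate block and each library left out were alternatives. Fold changes are CKO over WT. The SE given with an edgeR log2 fold change is its absolute value divided by the square root of the quasi-likelihood F statistic. It is therefore approximate, above all for genes near 0 in a group. No replicate was a copy of another: chi-square over degrees of freedom was between 66.9 and 300 within groups. Positions are RefSeq's for GRCm38.p6 (16854 of 16903 gene IDs matched), and the coding sequences GENCODE's. The script's fits were checked on simulated counts.

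Groups came from the labels. The rule for named genes took Clpx, Clpp, Mt1 and Mt2, the 12 per direction with the smallest p at a mean of at least 10 CPM, up to 10 per direction with the largest changes among calls without CKO replicate 3, the 2 most abundant and the 2 with the smallest p of each of 23 lists, the 10 highest in WT FPKM, and genes within 1 Mb of Clpx, leaving out predicted genes. Not all of them are printed, and a few results are not reported here. The members, the lists and the omission of CKO replicate 3 were chosen with earlier results of these data known, so they are no independent support. No molecular identifiers are named in the labels, so reads are not counts of molecules.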

Additional observations from a re-analysis of the deposited data

Results flagged for a closer look

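Among groups of 4 GV libraries, set beside the ovulated ones for the genes named by p-value or fold change, 5 of 60 had a library far from the other 3, where chance flags about 1 in 20. Clpx was at 51.5 CPM in GV WT replicate 1 and at 33.6 to 35.2 CPM in the others. Mt1 was at 78.4 CPM in GV CKO replicate 4 and at 104 to 108 CPM in the others. Tmem29 was at 69 CPM in GV WT replicate 3 and at 54.6 to 56.1 CPM in the others. Chchd2 was at 453 CPM in GV CKO replicate 3 and at 664 to 693 CPM in the others. Rtf1 was at 13.2 CPM in GV CKO replicate 1 and at 3.78 to 4.91 CPM in the others. Groups of 3 ovulated libraries were too small for this rule.

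The effect of losing Clpx on Tti2 differed between the stages by a tested log2 value of 6.41. Tti2 was at 0, 0 and 0.041 CPM in the ovulated WT libraries, so the value depends on the prior count. No gene was called with the replicate block or in 10 of the 14 fits that left out 1 library.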

How the results depend on the processing

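The count of genes called in ovulated oocytes, 1 as reported (0 higher, 1 lower), was 114 in DESeq2 (107 higher, 7 lower) and 64 in the fit of 14 libraries (61 higher, 3 lower). With each library left out it ran from 1 to 201 (0 to 196 higher and 1 to 5 lower), with 201 reached without CKO replicate 3 and 3 (2 higher) without WT replicate 3. The other settings gave 1. The stage difference, 1 as reported (1 higher, 0 lower), gave 64 calls in DESeq2 (60 higher, 4 lower), 0 with the replicate block, and 0 to 498 with each library left out (0 to 489 higher and 0 to 9 lower). Replicate numbers were not shown to pair the samples, though groups of 3 libraries are too small to settle this. Same-numbered WT and CKO libraries had correlations of −0.28, 0.38 and 0.03 of their deviations from the group means. Only WT replicate 2 correlated best with its own number. The replicate block gave 1 call in ovulated oocytes, the same count as without it. The cause of these changes was not tested. Fits that left out 1 library also had fewer libraries, and the part of that was not tested either.

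Of 70 genes named with a fitted value, 4 changed sign, none of which passed as reported. Alas1 (−0.022 as reported) was at 0.11 with total count scaling, 0.037 in limma-voom, 0.0036 at a mean of at least 10 CPM, 0.13 in FPKM and 0.032 with the replicate block. Atf4 (−0.000577) was at 0.069 with total count scaling, 0.15 in limma-voom, 0.0081 with no filter, 0.28 in FPKM, 0.16 with the replicate block and 0.019 in the fit of 14 libraries. With each library left out Alas1 ran from −0.24 to 0.21, Atf4 from −0.45 to 0.27, Nr5a2 from −0.090 to 0.34 and Pecam1 from −0.38 to 0.18. Pecam1 was at 0.044 in FPKM. The FPKM setting moved the median of all genes to 0.13 from −0.000484. The median of complex I ran from 0.67 to 1.79 over 7 settings and that of mitochondrial ribosomal proteins from −0.04 to 0.61. The biological coefficient of variation between libraries was 0.439 over all tested genes. It was 0.339 in the fit of genes with a mean of at least 10 CPM, for which the spread of replicates exceeds counting error.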
